A study of Homo sapiens with 12 samples.

Results

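The circadian clock genes examined here are PER1, PER2, PER3, CRY1, CRY2, NR1D1, NR1D2, DBP, TEF and BHLHE40. They were chosen by name, as the genes of the count table that carry one of these symbols, and make up 10 of its 20771 genes. All 10 passed the filter on low counts and were tested among 16515 genes. RNA was sequenced from a clone of each of the human Ewing sarcoma lines EW8 and TC71, named EW8-RRM1-KO and TC71-RRM1-KO. In both, endogenous RRM1, the gene for the large subunit of ribonucleotide reductase, had been disrupted with CRISPR-Cas9, and a codon-optimized RRM1 transgene was expressed only with doxycycline. Each line is a single-cell clone grown in DMEM with 10% FBS. The 4 groups hold 3 libraries each. They are EW8 and TC71 at 0 h, with doxycycline, and both lines at 48 h, after 48 h without the drug. Withdrawal of doxycycline and loss of RRM1 cannot be told apart in this design. The labels do not say whether replicates came from separate cultures, so the p-values measure the spread between these libraries, which may be technical. The hour of harvest was not given in the sources used here, and 1 interval of 48 h shows no rhythm, phase or amplitude. In bulk RNA, fewer cells with a transcript and less of it per cell cannot be told apart.

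The circadian clock is a feedback loop of transcription found in most cells. The activators CLOCK and BMAL1 bind E-boxes in DNA and switch on the PER and CRY genes, whose proteins return to the nucleus and repress the same activators. In a connected loop, NR1D1 and NR1D2 (REV-ERB alpha and beta) repress the BMAL1 gene, and further E-box targets such as DBP, TEF and BHLHE40 pass the rhythm on to other genes. PER1, PER2 and BHLHE40 also respond quickly to signals from outside the cell, such as serum, cAMP and hormones.

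Promoter sequences were searched for the elements through which the loop is known to act. RefSeq promoter sequences (GRCh38.p14) are printed for the 4 members that rose in both lines, PER1, PER2, CRY1 and BHLHE40, and for TEF, which fell most in EW8. Each runs 5′ to 3′ on the strand of the gene, from 250 bases before an annotated start to 20 bases into the transcript. Capitals mark an E-box (CACGTG), an E'-box (CACGTT) or a D-box (TTATGTAA or TTACGTAA, the element of DBP and TEF), read on either strand. PER1 is at chr17:8152385-8152654 (− strand), PER2 at chr2:238288591-238288860 (− strand), CRY1 at chr12:107093530-107093799 (− strand), BHLHE40 at chr3:4979187-4979456 (+ strand) and TEF at chr22:41381692-41381961 (+ strand).
PER1: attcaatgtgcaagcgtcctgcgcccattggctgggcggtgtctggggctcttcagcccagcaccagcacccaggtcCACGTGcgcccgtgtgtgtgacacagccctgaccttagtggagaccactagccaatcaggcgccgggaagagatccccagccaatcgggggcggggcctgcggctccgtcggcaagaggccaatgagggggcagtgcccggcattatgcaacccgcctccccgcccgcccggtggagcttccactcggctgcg
PER2: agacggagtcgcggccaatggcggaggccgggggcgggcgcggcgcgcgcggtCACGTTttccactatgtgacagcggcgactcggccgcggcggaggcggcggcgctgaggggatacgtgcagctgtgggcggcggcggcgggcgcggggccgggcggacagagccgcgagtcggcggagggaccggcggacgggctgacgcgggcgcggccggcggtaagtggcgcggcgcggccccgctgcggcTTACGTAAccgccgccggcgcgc
CRY1: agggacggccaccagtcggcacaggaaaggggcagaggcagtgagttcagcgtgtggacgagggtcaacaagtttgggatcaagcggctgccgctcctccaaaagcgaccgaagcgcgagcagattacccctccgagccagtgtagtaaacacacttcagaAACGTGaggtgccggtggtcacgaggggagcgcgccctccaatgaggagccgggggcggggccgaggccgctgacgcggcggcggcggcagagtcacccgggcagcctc
BHLHE40: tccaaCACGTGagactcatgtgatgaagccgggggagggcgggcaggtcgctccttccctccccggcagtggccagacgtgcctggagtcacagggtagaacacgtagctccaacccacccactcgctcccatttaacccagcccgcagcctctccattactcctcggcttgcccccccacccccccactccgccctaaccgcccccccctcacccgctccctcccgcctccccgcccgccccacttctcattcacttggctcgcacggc
TEF: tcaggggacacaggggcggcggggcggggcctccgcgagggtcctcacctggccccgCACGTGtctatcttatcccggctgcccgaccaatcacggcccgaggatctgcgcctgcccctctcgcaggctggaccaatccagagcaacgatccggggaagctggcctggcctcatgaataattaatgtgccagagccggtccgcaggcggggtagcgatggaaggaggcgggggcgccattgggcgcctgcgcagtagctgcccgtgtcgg

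PER1, TEF and BHLHE40 held 1 E-box each in the printed sequence, which began at positions -173, -193 and -245, with the annotated start as position 0. CRY1 held an E'-box at -89, and PER2 held an E'-box at -197 and a D-box that spans the start. The search covered 300 bases per start, 250 before and 50 after, in 14 windows of the 10 members. An E-box was found in 5 of the 14 windows, against 7.26% of the 35116 promoters in the table. An E'-box was found in 4, against 5.34%, and a D-box in 3, against 1.01%. Counted by gene, 8 of the 10 members (80%) held an E-box or E'-box, against 14.5% of 27305 genes. PER3 and DBP held neither. The full cAMP response element TGACGTCA and the AP-1 element TGAGTCA were in none of the 14 windows, against 1.85% and 4.95% of all promoters. The cAMP half-site TGACG, which is also contained in TGACGTCA, was in 6 windows, against 24.6%, and the AGGTCA half-site of ROR and REV-ERB receptors in 3, against 13.8%. These are matches of letters and do not show binding. The members are known clock genes, among them known E-box targets, so the list was not chosen independently of these motifs. Elements outside the windows were not searched.

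**Figure D1:**
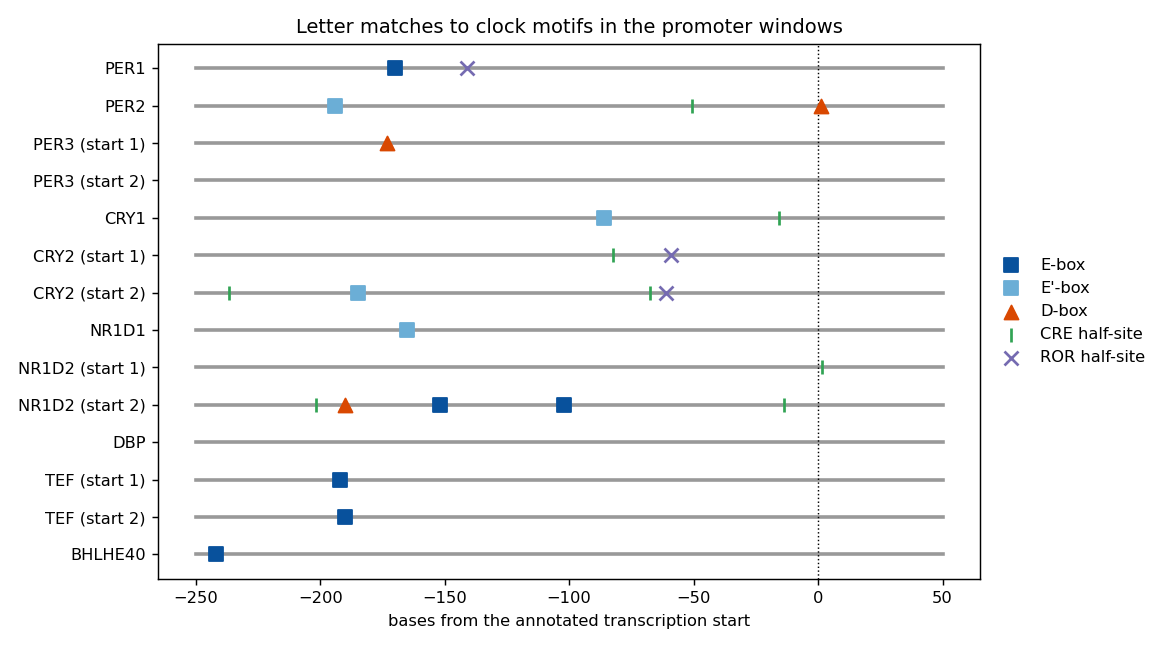
Matches to clock motifs in the 14 promoter windows, in bases from the annotated start (dotted line), with a grey bar for each window of 300 bases. E-boxes or E'-boxes (squares) appear in 8 of the 10 genes, and the windows of PER3 and DBP have none.

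Library totals ranged from 18468485 to 35698991 counts. Levels are given as CPM (counts scaled to library size with TMM factors), or as RPKM (CPM per kilobase of annotated exon) where genes are compared. All 10 Ewing sarcoma markers examined had at least 10 counts in every library. Their summed level was 1950 to 1970 CPM at 0 h and 1740 to 1780 at 48 h in EW8, and 1910 to 1940 and then 1840 to 1890 in TC71. At an adjusted p below 0.05, 5 of these markers were higher and 5 lower at 48 h in EW8 (37% and 31.6% of all genes), with log2 fold changes from -1.11 (BCL11B) to 0.98 (NR0B1), and 5 and 4 in TC71 (22.9% and 19.2%), from -0.95 to 0.47. Of the immune markers PTPRC was measured, at 0 to 5 counts, and of the epithelial markers EPCAM, at 2 to 9 counts in EW8 and 14 to 43 in TC71, where it rose by 0.67 (adjusted p = 0.0353). The fibroblast marker LUM had 76 to 149 counts in EW8 and 0 to 4 in TC71. The summed fibroblast and endothelial markers, mainly DCN, rose from 17.4 to 19.4 CPM at 0 h to 27.2 to 29.1 at 48 h in EW8 and from 17.7 to 18.5 to 27.4 to 31.4 in TC71. Their part in the changes below was not tested. Counts assigned to RRM1 were higher at 48 h, by 2.88 in EW8 and 0.65 in TC71 on the log2 scale. The transgene differs in sequence from the endogenous gene, so these counts do not check it, and the times are those of the labels.

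The first question was what happens to the clock genes when doxycycline is withdrawn. In EW8, PER1 rose 3.14-fold and TEF fell 2.04-fold, and 6 members rose and 2 fell at an adjusted p below 0.05 (edgeR quasi-likelihood test, Benjamini-Hochberg over all genes). In TC71, BHLHE40 rose 2.01-fold and PER1 1.51-fold, with 5 members that rose and 2 that fell. PER1, PER2, CRY1 and BHLHE40 rose in both lines and TEF fell in both. The same threshold was passed upward by 37% and downward by 31.6% of all genes in EW8, and by 22.9% and 19.2% in TC71. Where a fold above 2 was also required, 1 member was upregulated and 1 downregulated in EW8, against 13.9% and 3.35% of all genes. In TC71 these numbers were 1 and 0, against 3.26% and 0.854%. The libraries of 8 members did not overlap between 0 h and 48 h in EW8 (71.1% of all genes) and those of 7 did not in TC71 (49.6%). The median log2 fold change of the members was 0.34 in EW8 (all genes 0.03) and 0.15 in TC71 (all genes 0).

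**Figure D2:**
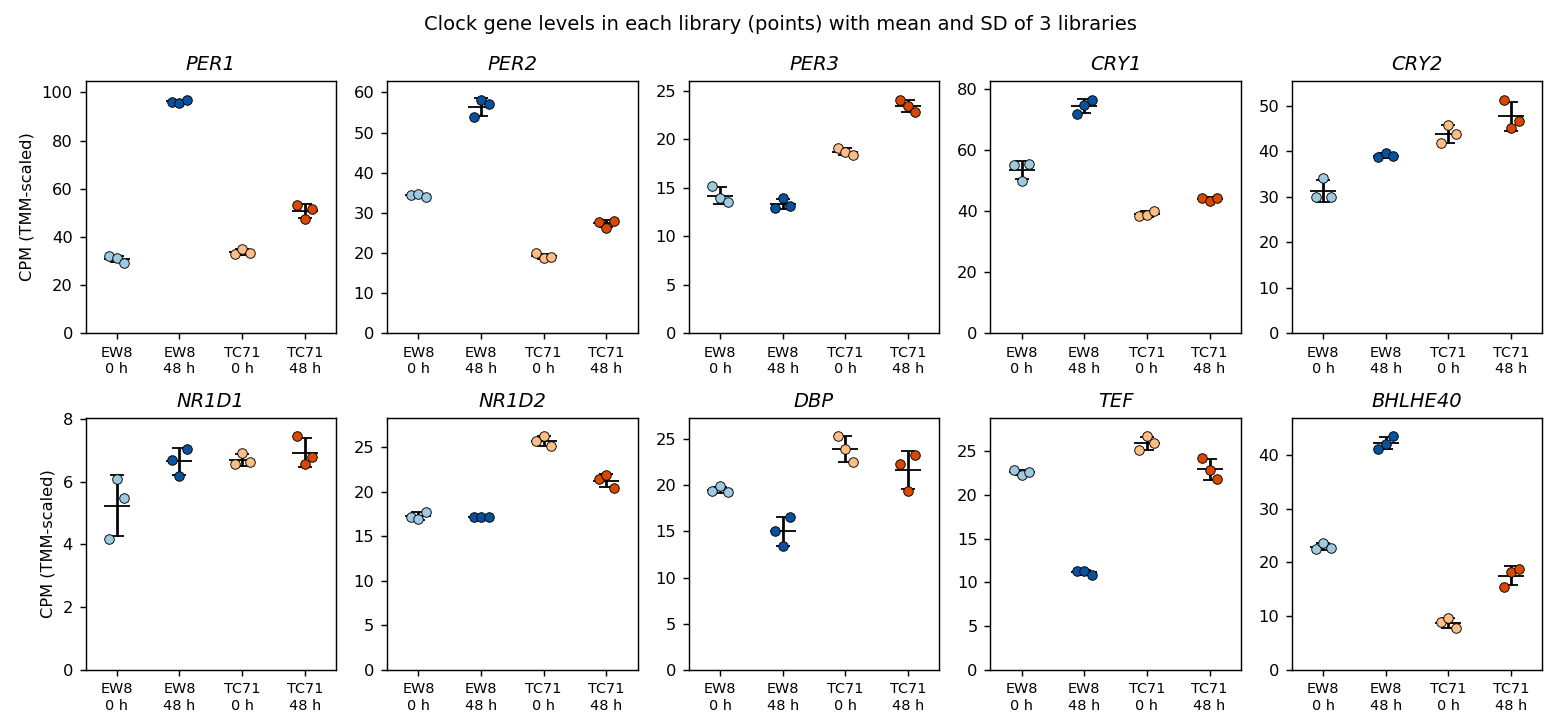
Level of each clock gene in CPM (vertical axis from 0, a scale per gene) in the 12 libraries, with points for libraries and the mean ± SD of 3 libraries per group. In EW8 PER1 moves from 29.3 to 31.9 CPM up to 95.6 to 97 CPM, and TEF from 22.3 to 22.9 CPM down to 10.8 to 11.3 CPM.

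The PER proteins are the limiting parts of the repressor complex, and their genes are switched on by both the loop and outside signals. PER1 (ENSG00000179094, chromosome 17, 8140472 to 8156506, − strand, hg38) stood at 31.9, 31 and 29.3 CPM in EW8 at 0 h and at 96.2, 95.6 and 97 CPM at 48 h. Its TC71 values were 32.9, 34.9 and 33.2 CPM at 0 h and 53.1, 47.5 and 51.6 CPM at 48 h. All 48 h libraries of both lines lay above all 0 h libraries, and EW8 at 48 h was highest. The log2 fold change was 1.65 ± 0.054 (SE; adjusted p = 7.34e-24) in EW8 and 0.59 ± 0.054 (adjusted p = 6.35e-11) in TC71. Among the members, PER1 had the largest change in EW8.

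PER2 (ENSG00000132326, chromosome 2, 238244044 to 238290102, − strand) is the partner repressor that, with PER1, carries most of the PER function. Its level was 34.4, 34.7 and 34 CPM in EW8 at 0 h and 53.9, 58.2 and 57.2 CPM at 48 h. The TC71 libraries held 19.9, 18.7 and 18.9 CPM at 0 h and 27.7, 26.3 and 28 CPM at 48 h. The groups of each line did not overlap, and TC71 at 48 h was still below EW8 at 0 h. On the log2 scale, the rise of PER2 was 0.72 ± 0.055 (adjusted p = 1.03e-13) for EW8 and 0.51 ± 0.061 (adjusted p = 1.99e-08) for TC71.

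PER3 (ENSG00000049246, chromosome 1, 7784291 to 7845177, + strand) is the family member that the core loop can do without. It stood at 15.2, 13.9 and 13.5 CPM in EW8 at 0 h and at 12.9, 13.9 and 13.1 CPM at 48 h. TC71 held 19.1, 18.7 and 18.4 CPM at 0 h and 24.1, 23.4 and 22.8 CPM at 48 h. The EW8 groups overlapped, with a log2 fold change of -0.09 (95% interval -0.25 to 0.07; adjusted p = 0.314). In TC71 the groups were apart and PER3 rose by 0.32 ± 0.067 (adjusted p = 0.000202). PER3 shares 868 exonic bases (10.7% of its exons) with UTS2 on the opposite strand, a gene with 1007 to 11736 counts that rose by 1.66 in EW8 and 0.40 in TC71. The strand setting of the counting was not given in the sources used here, and the part of UTS2 reads in the PER3 counts was not tested.

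The cryptochromes bind PER proteins and block CLOCK and BMAL1 directly. CRY1 (ENSG00000008405, chromosome 12, 106991364 to 107093549, − strand), the stronger repressor, stood at 55, 50 and 55.4 CPM in EW8 at 0 h and at 71.8, 74.9 and 76.5 CPM at 48 h. TC71 libraries had 38.3, 38.7 and 40.1 CPM of it and then 44.3, 43.3 and 44.3 CPM. The groups were apart in both lines, and the log2 fold change was 0.47 ± 0.051 (adjusted p = 4.64e-10) in EW8 and 0.17 ± 0.053 (adjusted p = 0.00894) in TC71. CRY2 (ENSG00000121671, chromosome 11, 45847118 to 45883248, + strand) stood at 29.9, 34.1 and 30 CPM in EW8 at 0 h and at 38.7, 39.6 and 39 CPM at 48 h. For TC71 it was measured at 41.8, 45.8 and 43.8 CPM and then at 51.4, 45.2 and 46.7 CPM. The EW8 groups were apart and CRY2 rose by 0.33 ± 0.063 (adjusted p = 2.39e-05), whereas the TC71 groups overlapped, with a log2 fold change of 0.13 (95% interval 0.01 to 0.24; adjusted p = 0.078). In TC71 the CRY2 value fell on the other side of the threshold with total counts as the scale (0.18; adjusted p = 0.0152), without the EW8 0 h replicate 2 (0.13; adjusted p = 0.0495) and without the TC71 48 h replicate 2 (0.16; adjusted p = 0.0351).

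The REV-ERB receptors repress transcription when they bind heme, and are themselves E-box targets. NR1D1 (ENSG00000126368, chromosome 17, 40092793 to 40100589, − strand) was the member with the fewest reads, at 4.16, 6.07 and 5.46 CPM in EW8 at 0 h and 6.7, 6.17 and 7.05 CPM at 48 h. In TC71 it stood at 6.56, 6.91 and 6.62 CPM and then at 7.44, 6.56 and 6.77 CPM. In EW8 the groups were apart and the log2 fold change was 0.35 ± 0.123 (adjusted p = 0.0121), but replicate 1 at 0 h was lowest, and without it the value was 0.18 (adjusted p = 0.204). Without the EW8 48 h replicate 3 it was 0.31 (adjusted p = 0.0584). In TC71 the NR1D1 groups overlapped, with a log2 fold change of 0.05 (95% interval -0.18 to 0.28; adjusted p = 0.751). NR1D1 shares 473 exonic bases (18% of its exons) with THRA on the opposite strand, which changed by -1.11 in EW8 and -0.22 in TC71. The part of THRA reads in the NR1D1 counts was not tested.

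NR1D2 (ENSG00000174738, chromosome 3, 23945286 to 23980617, + strand) stood at 17.2, 16.9 and 17.7 CPM in EW8 at 0 h and at 17.2, 17.2 and 17.1 CPM at 48 h. In TC71 it stood at 25.7, 26.2 and 25.1 CPM and then at 21.4, 21.9 and 20.4 CPM. The EW8 groups overlapped, with a log2 fold change of -0.01 (95% interval -0.16 to 0.13; adjusted p = 0.878), and the TC71 groups were apart, with a log2 fold change of -0.27 ± 0.062 (adjusted p = 0.000504).

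DBP and TEF are PAR bZIP factors that activate output genes through D-boxes. DBP (ENSG00000105516, chromosome 19, 48630030 to 48637379, − strand) stood at 19.4, 19.9 and 19.3 CPM in EW8 at 0 h and at 15, 13.4 and 16.6 CPM at 48 h. In TC71 it stood at 25.3, 23.9 and 22.5 CPM and then at 22.3, 19.4 and 23.3 CPM. The EW8 groups were apart, with a log2 fold change of -0.37 ± 0.083 (adjusted p = 0.000163), and the TC71 groups overlapped, at -0.14 (95% interval -0.29 to 0.01; adjusted p = 0.126). DBP shares 661 exonic bases (10.2% of its exons) with SPHK2 on the opposite strand, which changed by 0.29 in EW8 and 0.08 in TC71, and the part of these reads was not tested.

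TEF (ENSG00000167074, chromosome 22, 41367333 to 41399326, + strand) showed the reverse of PER1 in EW8. Its level was 22.9, 22.3 and 22.6 CPM at 0 h and 11.3, 11.3 and 10.8 CPM at 48 h. In TC71 it was 25.2, 26.7 and 25.9 CPM and then 24.2, 22.9 and 21.8 CPM. The groups of both lines were apart, and EW8 at 48 h was below the other 3 groups. The log2 fold change was -1.03 ± 0.074 (adjusted p = 2.13e-14) in EW8 and -0.18 ± 0.062 (adjusted p = 0.0227) in TC71. With total counts as the scale the EW8 value was -0.90, below a fold of 2. The TC71 value missed the threshold in 7 of 22 alternatives. These were total counts (-0.13; adjusted p = 0.102), the Wald test of DESeq2 (adjusted p = 0.0525), the replicate block (adjusted p = 0.0605), the fold of 1.5 inside the test, and the fits without TC71 0 h replicate 2 (-0.16; adjusted p = 0.0739) or replicate 3 (-0.17; adjusted p = 0.057) and without TC71 48 h replicate 3 (-0.14; adjusted p = 0.129).

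BHLHE40 (ENSG00000134107, chromosome 3, 4979437 to 4985323, + strand), also called DEC1, competes for E-boxes and represses CLOCK and BMAL1 targets. It stood at 22.5, 23.7 and 22.7 CPM in EW8 at 0 h and at 41.2, 42.1 and 43.5 CPM at 48 h. The TC71 values of BHLHE40 were 8.86, 9.61 and 7.74 CPM and then 15.5, 18.2 and 18.8 CPM. The groups did not overlap in either line, and the log2 fold change was 0.88 ± 0.069 (adjusted p = 1.85e-13) in EW8 and 1.01 ± 0.084 (adjusted p = 7.6e-12) in TC71. With total counts as the scale the EW8 value was 1.01, above a fold of 2. The TC71 value sits at the fold threshold of 2, ranging from 0.93 to 1.09 over the alternatives, and fell below that fold with upper-quartile factors (0.98) and without EW8 0 h replicate 1 or 3, TC71 0 h replicate 3 or TC71 48 h replicate 2 or 3. BHLHE40 shares 451 exonic bases with BHLHE40-AS1 on the opposite strand, which had 0 to 6 counts per library.

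The second question was whether the response differed between the lines. The difference of the log2 fold changes, EW8 minus TC71, was tested in the same fit. PER1 rose more in EW8, by a difference of 1.06 ± 0.077 (adjusted p = 2.85e-13), and TEF fell more in EW8, with a difference of -0.85 (SE 0.097; adjusted p = 6.68e-09). At an adjusted p below 0.05 the difference was positive for 4 members and negative for 2, against 25.7% and 22.4% of all genes. With a fold above 2 as well, PER1 was the 1 member in the positive direction, against 7.28% of all genes, and there were 0 in the negative direction, against 0.981%. Without EW8 0 h replicate 3 the PER1 difference lay just under a fold of 2, and no member passed that fold. The other differences past the threshold were 0.21 for PER2 (adjusted p = 0.0374), -0.41 for PER3 (adjusted p = 0.00118), 0.30 for CRY1 (adjusted p = 0.000921) and 0.26 for NR1D2 (adjusted p = 0.0201). The PER2 difference missed the threshold in 12 of 21 alternative settings, among them those without any 1 EW8 0 h replicate, EW8 48 h replicate 2 or 3, TC71 0 h replicate 1 or 3 or TC71 48 h replicate 2 (0.17 to 0.21). The NR1D2 difference missed it without EW8 0 h replicate 1 or 2 or TC71 48 h replicate 3 (0.21 to 0.24). CRY2 (0.20; adjusted p = 0.0507) passed it without EW8 0 h replicate 2, TC71 0 h replicate 1 or TC71 48 h replicate 1, and DBP (-0.23; adjusted p = 0.0806) without EW8 48 h replicate 3 or TC71 48 h replicate 2. NR1D1 had a difference of 0.30 (adjusted p = 0.135). BHLHE40 had a difference of -0.13 (95% interval -0.35 to 0.09; adjusted p = 0.352), which did not pass the test and leaves differences within that interval possible.

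**Figure D3:**
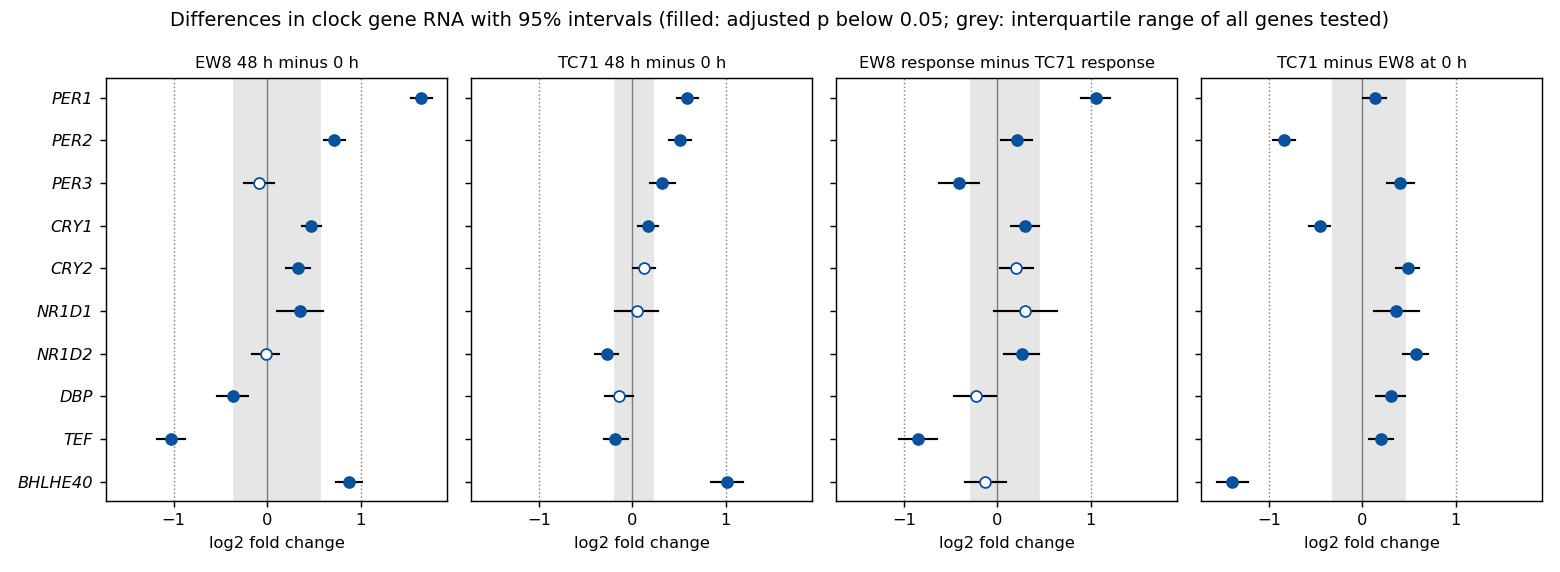
Log2 fold changes of the 10 clock genes with 95% intervals in 4 comparisons on a shared axis, filled where the adjusted p was below 0.05, with the interquartile range of all genes tested in grey and dotted lines at a fold of 2. PER1 and TEF lie farthest apart between the EW8 and TC71 responses (1.65 against 0.59, and -1.03 against -0.18).

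The third question was how the lines compared before withdrawal. At 0 h, 7 members were higher and 3 lower in TC71 than in EW8 at an adjusted p below 0.05, against 32.9% and 32.8% of all genes. All 10 had libraries that did not overlap (68.3% of all genes). BHLHE40 was 2.63-fold lower in TC71 (log2 difference -1.40 ± 0.083; adjusted p = 1.61e-16), the only member past a fold of 2, where 4.77% of all genes were lower and 11.9% higher. PER2 (-0.84; adjusted p = 2.69e-14) and CRY1 (-0.46; adjusted p = 2.42e-09) were also lower in TC71. NR1D2 (0.57; adjusted p = 2.08e-09), CRY2 (0.49; adjusted p = 1.32e-08), PER3 (0.40; adjusted p = 1.03e-05), DBP (0.30; adjusted p = 0.000922) and TEF (0.20; adjusted p = 0.00727) were higher. NR1D1 was higher by 0.36 (adjusted p = 0.00838), and by 0.22 (adjusted p = 0.121) without EW8 0 h replicate 1. PER1 differed by 0.13 (adjusted p = 0.0448), a call that was lost in 12 alternatives, among them those without EW8 0 h replicate 2 or 3, any TC71 0 h replicate, EW8 48 h replicate 1 or 2 or TC71 48 h replicate 3. Each line is 1 clone, so a difference between lines and a difference between clones cannot be told apart. EPCAM was higher in TC71 (2.56; adjusted p = 2.9e-06), and its part and that of LUM in these differences were not tested.

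At 48 h the lines were compared in a contrast added after the data were seen. PER1 was lower in TC71 by a log2 difference of -0.92, PER2 by -1.04, CRY1 by -0.76 and BHLHE40 by -1.27. TEF was higher by 1.05, PER3 by 0.81, DBP by 0.53, NR1D2 by 0.30 and CRY2 by 0.29. A fold above 2 was passed by TEF upward and by PER2 and BHLHE40 downward, against 11% and 10.5% of all genes. At an adjusted p below 0.05 alone 5 members were higher and 4 lower in TC71, against 35.4% and 37.3% of all genes, and NR1D1 differed by 0.06 (adjusted p = 0.654).

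Levels per length give the order of the members within a group. Length is the union of all annotated exons of a gene (6485 bases for DBP, 2630 for NR1D1). Where it exceeds the length of the transcript expressed, the level is understated, and the order was not tested with other lengths. CRY1 was highest in all 4 groups, at 11.2 ± 0.635 RPKM (SD, n = 3) in EW8 at 0 h, 15.6 at 48 h, 8.16 in TC71 at 0 h and 9.19 at 48 h. In EW8, PER1 moved from 4.39 ± 0.187 RPKM, below CRY2 (5.05 ± 0.393), PER2 (4.85 ± 0.052) and TEF (4.80 ± 0.062), to 13.8 ± 0.0969 RPKM, just below CRY1. TEF moved from 4.80 to 2.36 ± 0.0624 RPKM, close to DBP (2.32 ± 0.247) at 48 h. BHLHE40 was 6.53 ± 0.187 RPKM in EW8 at 0 h and 2.49 ± 0.268 in TC71. PER3 was lowest in EW8 at both times (1.75 and 1.64 RPKM) and in TC71 at 0 h (2.30), and NR1D1 was lowest in TC71 at 48 h (2.63, with PER3 at 2.88). In the order of the 4 groups for each gene, the neighbours whose libraries overlapped were the EW8 pair for PER3 and for NR1D2, the TC71 pair for CRY2, NR1D1 and DBP, EW8 at 48 h and TC71 at 0 h for NR1D1, and EW8 at 0 h and TC71 at 48 h for DBP and TEF. All other neighbours were apart.

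The activators that drive the members were measured in the same libraries. CLOCK, the partner of BMAL1, had 718 to 1354 counts in the EW8 libraries at 0 h. Its log2 fold change was -0.58 (adjusted p = 3.41e-10) in EW8 and -0.27 (adjusted p = 0.000203) in TC71, a fall in both lines. ARNTL, which encodes BMAL1, was near the limit of detection in TC71, where the 0 h libraries held 8, 4 and 10 counts and the 48 h libraries 7, 9 and 12. The EW8 libraries held 35, 21 and 47 counts with doxycycline and 46, 51 and 59 without it, a rise of 0.90 ± 0.195 (adjusted p = 0.000122). The related factor ARNTL2 (BMAL2) was at 3.83 RPKM in EW8 at 0 h, where ARNTL was at 0.20 RPKM. ARNTL2 changed by -0.02 in EW8 (adjusted p = 0.805) and rose by 0.70 in TC71 (adjusted p = 7.65e-09). NPAS2 was not analysed here.

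Of the other loop transcription factors, 3 of 5 tested were upregulated in EW8 with a fold above 2 (13.9% of all genes), and 0 in TC71 (3.26%). BHLHE41 (DEC2), the closest relative of BHLHE40, had log2 fold changes of 1.67 (adjusted p = 1.49e-16) and 0.73 (adjusted p = 1.8e-08), a rise in both lines. CIART, a repressor of CLOCK and BMAL1, rose by 1.16 in EW8 (adjusted p = 1.01e-06) and had 0.05 in TC71 (adjusted p = 0.821), and its difference between lines was 1.11 (adjusted p = 0.000303). RORB, a receptor that activates BMAL1, rose by 1.14 in EW8 (adjusted p = 4.78e-08), with 0.21 in TC71 (adjusted p = 0.361). NFIL3, which opposes DBP and TEF at D-boxes, rose by 0.43 in EW8 (adjusted p = 0.000363), with -0.15 in TC71 (adjusted p = 0.352). RORA, at 4 to 19 counts, did not pass the test in either line. HLF was not analysed here.

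**Figure D4:**
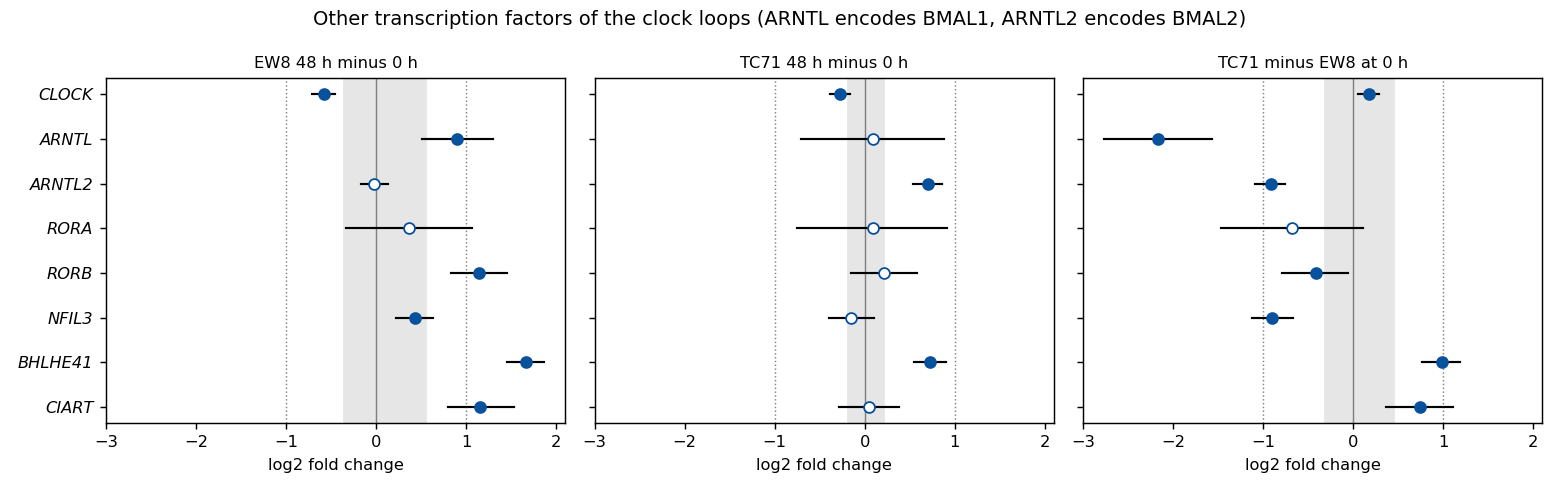
Log2 fold changes with 95% intervals for CLOCK, ARNTL (BMAL1), ARNTL2 (BMAL2), RORA, RORB, NFIL3, BHLHE41 and CIART in 3 comparisons on a shared axis, filled where the adjusted p was below 0.05, with the interquartile range of all genes in grey and dotted lines at a fold of 2. CLOCK lies below 0 in both responses (-0.58 and -0.27), and BHLHE41 above 0 in both (1.67 and 0.73).

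Kinases and ligases of the clock act on the stability of PER and CRY proteins, and their list also held cofactors with other roles. Of 15 genes of this list tested, 0 passed both thresholds in either line. Of all genes 13.9% were up and 3.35% down in EW8 at these thresholds, and 3.26% and 0.854% in TC71. At an adjusted p below 0.05 EW8 had 4 that rose and 7 that fell (37% and 31.6% of all genes), and TC71 had 1 and 6 (22.9% and 19.2%). Of 11 clock-controlled output genes tested, 3 were upregulated in EW8 (KLF9, KLF10 and CDKN1A) and 2 in TC71 (KLF10 and CDKN1A), against 13.9% and 3.26% of all genes. In both lines 0 of them were downregulated, against 3.35% and 0.854%. At an adjusted p below 0.05 alone, 6 were higher and 5 lower at 48 h in EW8 (37% and 31.6% of all genes), and 4 and 3 in TC71 (22.9% and 19.2%). CDKN1A, the p21 inhibitor of the cell cycle, rose by 3.40 in EW8 and 2.05 in TC71.

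PER1 and PER2 are known targets of cAMP signalling and of glucocorticoids, so genes of those responses were counted too. Of 10 genes of the cAMP and CREB list, 4 were upregulated in EW8 (CREM, NR4A1, FOS and CRTC1) and 4 in TC71 (CREM, NR4A1, FOS and PDE4B), against 13.9% and 3.26% of all genes. In both lines 0 of this list were downregulated, against 3.35% and 0.854%. At an adjusted p below 0.05, 8 rose in each line, against 37% and 22.9% of all genes, and 2 did not pass. SIK1 had -0.06 in EW8 (adjusted p = 0.548) and rose by 0.18 in TC71 (adjusted p = 0.0441). The median log2 fold change of this list was 0.76 in EW8 (all genes 0.03) and 0.62 in TC71 (all genes 0). Of 7 glucocorticoid targets tested, 5 were upregulated in EW8 (TSC22D3, DUSP1, SGK1, ERRFI1 and KLF15) and 2 in TC71 (DUSP1 and ERRFI1), against 13.9% and 3.26% of all genes. Their median was 1.53 in EW8 and 0.52 in TC71. FKBP5, a classical glucocorticoid target, fell by 0.29 in EW8 and rose by 0.13 in TC71, and NFKBIA, an inhibitor of NF-kB, had -0.54 and -0.20, a fall in both lines. Both lists were chosen with earlier results of these data known, so the shares describe the listed genes and are no independent test. No cause of the PER1 rise was tested.

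The genes whose levels most resembled a member were ranked by Pearson's r of log2 CPM over the 12 libraries, which share line and time groups, so r describes the pattern of 4 groups. PER1 was closest to DLX2 (r = 0.998) and SLC25A25 (r = 0.997), TEF to MTA2 (r = 0.995) and AKAP1 (r = 0.995), and BHLHE40 to ADGRG2 (r = 0.992) and ATP1B1 (r = 0.989). Among the members, PER2 was closest to BHLHE40 (r = 0.983), CRY1 to PER2 (r = 0.98), DBP to TEF (r = 0.888), CRY2 and NR1D1 to each other (r = 0.83), and PER1 to PER2 (r = 0.758). The lowest r of CRY1 and of DBP was with each other (r = -0.93), that of TEF was with CRY1 (r = -0.929), that of PER2 with DBP (r = -0.919), those of NR1D2 and BHLHE40 with each other (r = -0.914) and that of PER1 with TEF (r = -0.906).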

How the data were processed

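RNA was isolated with the RNeasy Plus kit, libraries were made from polyA RNA with a stranded TruSeq protocol, and paired-end reads of 100 bases were checked with FastQC and mapped to hg38 with STAR, per the labels and the study's methods. The authors deposited raw counts per gene for 12 libraries, with no normalization. The counting tool, its strand setting and its annotation were not given in the sources used here. Every gene had at least 21 counts in all libraries together, so low counts had been filtered. Depth was 18468485 to 35698991 counts per library, and the biological coefficient of variation was 4.17%.

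Counts were tested with edgeR 4.0.16 (limma 3.58.1, R 4.3.3): filterByExpr (minimum count 10, minimum total 15), TMM scaling and 1 robust quasi-likelihood fit of the 4 groups, with no replicate block and Benjamini-Hochberg adjustment over 16515 genes. A gene rose or fell at an adjusted p below 0.05, and was called upregulated or downregulated where the fold also exceeded 2. Errors of fold changes are standard errors, and intervals are at 95%. Coordinates, exon lengths and overlaps came from GENCODE 44, to which 19943 of 20771 genes were matched. Promoters came from RefSeq. The procedure was tested on simulated data. Plots used Python 3.11.15 (matplotlib 3.10.9).

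The members and lists were chosen with earlier results of these data known. All 10 members were named, the activators and loop factors that were tested, and genes of other lists where both thresholds were passed in either line. FKBP5, NFKBIA, SIK1 and the markers NR0B1, DCN, LUM, EPCAM and PTPRC fall outside this rule and were named after their values were seen. Like genes were the 2 with the highest r per member, and those of the 3 members that passed both thresholds in a response are given. Alternatives were other scalings (DESeq2 size factors, total counts, upper quartile), the Wald test of DESeq2 1.42.0, other filters and fold thresholds, each line alone, a fit that was not robust, a replicate block and each library left out.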

Additional observations from a re-analysis of the deposited data

Results flagged for a closer look

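For 6 of the 10 clock genes the response to 48 h without doxycycline differed between EW8 and TC71 by a test of the difference itself (edgeR interaction, adjusted p below 0.05 over all genes). The difference, EW8 minus TC71 on the log2 scale, was 1.06 for PER1, 0.21 for PER2, -0.41 for PER3, 0.30 for CRY1, 0.26 for NR1D2 and -0.85 for TEF. The PER2 difference missed the threshold in 12 of 21 alternative settings and that of NR1D2 in 5 of 21. At that threshold the difference was positive for 25.7% and negative for 22.4% of all genes tested. PER1 (1.65 in EW8 and 0.59 in TC71) and CRY1 (0.47 and 0.17) rose in both lines and more in EW8. TEF (-1.03 and -0.18) fell in both and more in EW8, and its fall in TC71 missed the threshold in 7 of 22 alternatives. PER2 rose in both (0.72 and 0.51), PER3 rose in TC71 alone (-0.09 and 0.32), and NR1D2 fell in TC71 alone (-0.01 and -0.27), by the threshold in each line.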

How the results depend on the processing

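The direction and the side of the threshold stayed the same for 12 of 40 member values (10 genes in 4 comparisons) in every alternative run, the fold of 1.5 inside the test included. Among the rest, 3 reversed: with total counts PER3 in EW8 was 0.04 and NR1D2 in EW8 was 0.11, and NR1D1 in TC71 was 0 without TC71 48 h replicate 1 (just below 0; 0 to 0.08 over the libraries left out). Total counts put the median of all genes at 0.16 in EW8, against 0.03, and gave 2 members upregulated and 0 downregulated there (16.1% and 2.09% of all genes), and 1 that fell in TC71 (14.2%). With upper-quartile factors 0 were upregulated in TC71 (3.07%). With no fold threshold, the numbers up and down were 6 and 2 in EW8 (37% and 31.6% of all genes) and 5 and 2 in TC71 (22.9% and 19.2%). They were 7 and 3 between lines at 0 h (32.9% and 32.8%), and 4 and 2 in the difference of responses (25.7% and 22.4%). With a fold of 1.5 inside the test, the members past the adjusted p alone were 3 up and 1 down in EW8 (16.3% and 5.96% of all genes), 1 and 0 in TC71 (2.75% and 0.272%), 0 higher and 2 lower in TC71 at 0 h (12.9% and 7.47%), and 1 and 1 in the difference of responses (6.11% and 1.37%). The Wald test of DESeq2 left 1 member that fell in TC71 (16.3%) and 2 positive differences (22.8%). Leaving out a library gave 0 to 1 upregulated (3.1% to 3.37% of all genes) and 1 to 2 that fell (15.5% to 20.1%) in TC71. Positive differences numbered 0 to 1 at both thresholds (6.41% to 7.39%) and 2 to 5 at the adjusted p alone (22% to 25.3%). The cause was not tested.

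No pairing by replicate number was seen: deviations of same-numbered libraries correlated at -0.053 to -0.015 in EW8 and -0.138 to -0.035 in TC71. Libraries with different numbers had -0.02 to 0.058 in EW8 and -0.02 to 0.1 in TC71. Deviations from a mean of 3 libraries depend on each other, so these values cannot exclude pairing. With the replicate block, 1 member fell in TC71 (16% of all genes) in place of 2, since TEF had an adjusted p of 0.0605, and the PER2 difference had one of 0.0869.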
